A study of Mus musculus with 6 samples.

Results

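Ephrins, semaphorins and a few of their receptors were followed across the endothelial and perineurial-like cells of mouse dorsal skin. They were taken by symbol from the 32285 genes of the files, and all 10 were present: the ephrin ligands *Efnb2*, *Efnb1* and *Efna1*, the ephrin receptor *Ephb4*, the semaphorins *Sema3a*, *Sema3d*, *Sema3g* and *Sema6a*, the semaphorin receptor *Plxnd1*, and the netrin receptor *Unc5b*. In the cells kept they held between 3714 UMIs (*Unc5b*) and 11519 UMIs (*Plxnd1*), a UMI being the tag that marks 1 captured mRNA molecule. Cells labelled with tdTomato by *Cdh5*-CreERT2, which is driven by the promoter of VE-cadherin, were sorted from skin and profiled by droplet scRNA-seq, with 2 mice and 2 libraries (S1 and S2) in each of 3 groups.

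WT telogen mice (PD 20) and WT anagen mice (PD 32) carried tdTomato, *Cdh5*-CreERT2 and *Krt14*-H2BGFP on a C57BL/6;CD1 background. Alk1 KO mice were taken at telogen (PD 25), carried Alk1 flox/flox with tdTomato and *Cdh5*-CreERT2 on C57BL/6, and had no *Krt14*-H2BGFP allele in their description. All 6 mice, controls included, received tamoxifen (200 µg/g) at PD 17. Age, time after tamoxifen, strain, the reporter allele and the deletion therefore differed together between Alk1 KO and WT telogen and cannot be told apart. Sex, read from *Xist* and *Ddx3y* below, also differed in part, being female in the KO and mixed in WT telogen. The genotype entry of both KO libraries reads wild type, against their titles and descriptions, which were followed here.

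Ephrins are ligands anchored in the membrane, so that they reach Eph receptors only on a touching cell, and both cells can receive a signal. Ephrin-B2 on arteries and its receptor EphB4 on veins are the classical pair that keeps arterial and venous endothelium apart, and the same pair acts in the formation of lymphatic valves. Secreted semaphorins of class 3 signal through plexins, mostly with a neuropilin as co-receptor, and repel endothelial sprouts and axons. Vessels and nerves of the skin share these cues, as do netrins and their Unc5 receptors.

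The libraries held 10615358 to 43317677 UMIs, the 2 KO libraries the fewest, and 1713 to 5106 cells were kept in each. Of 20 clusters, 18 were named from fixed markers into 16 populations, and 433 cells stayed unnamed. ECs (12647 cells) comprised Artery, Vein, Cap-Kdr and Cap-Rgcc (blood ECs) and Lymph-Col and Lymph-Cap (lymphatic ECs), and the *Cdh5*+/*Krt19*+ cells (2696 cells) are perineurial-like by their markers and lie outside the ECs. The 10 genes and their family were left out of the genes used for clustering. Of 27418 barcodes, 80 sequences occurred in 2 or more libraries. *Xist* was read at 1196, 858 and 824 CPM (UMIs per 1000000 of the summed population) in ECs of telogen S1 and the 2 KO libraries and at 0 to 0.0485 CPM in the other 3, whose *Ddx3y* was 99.4 to 117 CPM, so by these genes the sexes were mixed at telogen, male at anagen and female in the KO. *Acvrl1*, the gene of Alk1, was still read in KO ECs, at 119 and 96.9 CPM against 155 and 134 CPM in WT telogen (edgeR log2 fold change −0.48, SE 0.14, adjusted p = 0.031). Taken singly, Cap-Kdr (−0.92) and Cap-Rgcc (−0.70) had edgeR adjusted p of 0.0018 and 0.037. Artery (−0.015), Vein (−0.18), Lymph-Col (−0.19) and Lymph-Cap (−0.42) had adjusted p of 0.32 to 0.97. In *Cdh5*+/*Krt19*+ cells *Acvrl1* stood at 12.7 and 0 CPM in the KO (4 UMIs in all), against 17.3 and 12.1 CPM (edgeR adjusted p = 0.43). Reads of a 3′ library may lie outside the deleted part, which the sources used here do not name, so this level does not measure the deletion.

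Within wild-type skin the 10 genes differed in the populations where they were read most, although some shared a place. *Sema3g* and *Efnb2* were highest in arteries, *Sema3a* and *Sema3d* in lymphatic vessels, *Efnb1* in the perineurial-like cells, *Plxnd1* in Kdr capillaries and *Unc5b* in collecting lymphatics, while *Sema6a* was broad. Levels are given as CPM, mean ± SD over the 4 WT libraries, and compare populations for 1 gene, not genes with each other.

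**Figure D1:**
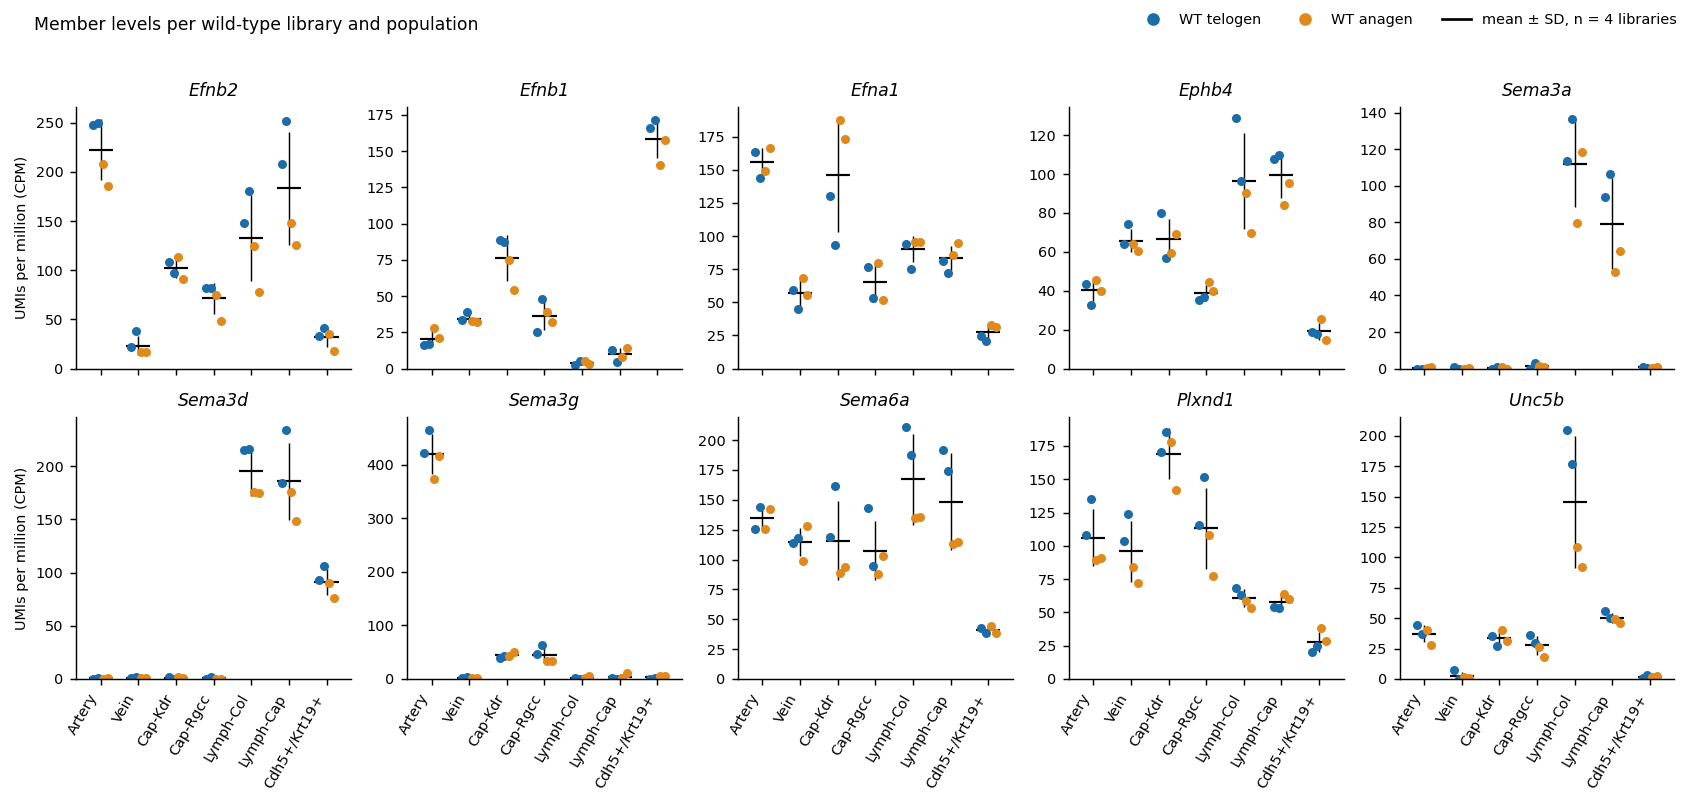
Level of each gene in UMIs per 1000000 (linear axis, 1 scale per gene) in 6 EC populations and the *Cdh5*+/*Krt19*+ cells, with points for the 4 WT libraries and bars for mean ± SD. *Sema3g* in Artery (374 to 466 CPM) and *Efnb1* in *Cdh5*+/*Krt19*+ cells (140 to 171 CPM) lie clear of every other population shown.

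*Efnb2*, the arterial ephrin (chr8:8617434-8661242, minus strand, GRCm38), led in Artery with 222.7 ± 31.4 CPM. Its values there were 247 and 250 CPM at telogen and 208 and 185 CPM at anagen. Lymph-Cap followed with 183 ± 57.4 CPM, Lymph-Col with 133 ± 43.5 CPM and Cap-Kdr with 102 ± 10.6 CPM, and each of these overlapped its neighbour in the order. Vein was low, at 21.7 and 38.0 CPM at telogen and 16.7 and 17.1 CPM at anagen, so that every Artery library lay above every Vein library. Outside the vessels *Efnb2* was read at 79.1 ± 23.8 CPM in pericyte-like cells and at 6.43 ± 5.71 CPM in macrophage-like cells.

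*Efnb1*, the closest relative of ephrin-B2 among the ligands and an X-linked gene (chrX:99136130-99148991, plus strand), was highest in the *Cdh5*+/*Krt19*+ cells, at 166, 171, 140 and 157 CPM in telogen S1 and S2 and anagen S1 and S2. Cap-Kdr came next with 76.2 ± 15.8 CPM and did not overlap it. The lymphatic populations were the low end of the endothelium, with 9.99 ± 4.37 CPM in Lymph-Cap and 3.87 ± 1.59 CPM in Lymph-Col, a level like the 3.56 ± 2.42 CPM of macrophage-like cells. *Efna1*, a type A ephrin tethered by a lipid anchor, was high in Artery (156 ± 10.9 CPM) and Cap-Kdr (146 ± 43.0 CPM), which overlapped, and low in *Cdh5*+/*Krt19*+ cells (27.3 ± 5.72 CPM).

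*Ephb4*, the receptor for ephrin-B2, was read most in lymphatic vessels, at 99.4 ± 11.8 CPM in Lymph-Cap and 96.3 ± 24.6 CPM in Lymph-Col. Vein (65.7 ± 5.96 CPM) and Cap-Kdr (66.4 ± 10.5 CPM) did not differ beyond their spread, and both were above Artery (40.5 ± 5.67 CPM). The lymphatic populations thus held both ephrin-B2 and its receptor transcript, whereas in blood vessels the ligand was highest in Artery and the receptor lowest in Artery and Cap-Rgcc.

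Of the secreted semaphorins, *Sema3g* was arterial, at 423 and 466 CPM at telogen and 374 and 417 CPM at anagen. The nearest populations were Pericyte-like and the capillaries, the latter at 33.7 to 63.3 CPM, and Vein held 1.09 to 4.22 CPM. *Sema3a*, a repellent of sensory axons, was highest in Lymph-Col (112 ± 23.7 CPM) and Lymph-Cap (79.3 ± 24.9 CPM) among the EC populations. In the 4 blood EC populations it reached at most 3.33 CPM in any WT library. *Sema3d* had the same lymphatic pattern, with 195 ± 23.2 CPM in Lymph-Col and 186 ± 35.8 CPM in Lymph-Cap, and in addition 91.3 ± 12 CPM in *Cdh5*+/*Krt19*+ cells, where *Sema3a* was at 0.496 to 0.800 CPM. The 2 genes are neighbours, 0.536 Mb apart on chromosome 5 (chr5:12383385-12588948 and chr5:13125414-13602565, both on the plus strand).

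*Sema6a*, a semaphorin with a membrane anchor, ran from 107 ± 24.9 CPM in Cap-Rgcc to 167 ± 38.0 CPM in Lymph-Col without a break between neighbouring EC populations, and was lower in *Cdh5*+/*Krt19*+ cells (41.0 ± 3.32 CPM). *Plxnd1*, the endothelial plexin, was highest on average in Cap-Kdr (170, 186, 178 and 142 CPM), which overlapped Cap-Rgcc (77.0 to 152 CPM) and proliferative cells (93.5 to 153 CPM). Among ECs it was lowest in the lymphatic populations (53.3 to 68.6 CPM). It was also read in macrophage-like cells (59.1 to 109 CPM), so that its transcripts were not found in vessels alone. *Unc5b*, a receptor for netrins, was highest in Lymph-Col with 146 ± 54.0 CPM, followed by Lymph-Cap (50.4 ± 4.06 CPM), and these did not overlap each other or Artery (37.4 ± 7.10 CPM). It was scarce in Vein, with 9 UMIs at telogen, all in S1, and 9 at anagen.

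The promoters of *Sema3a* and *Sema3d*, which share a pattern, and of *Efnb1*, which gave the largest KO change among the EC populations, are shown as the 250 bases before the RefSeq start on GRCm38.p6, read 5′ to 3′ on the plus strand, with TGGGAA (the core of the Rbpj site of Notch signalling) in capitals. RefSeq entries were matched by symbol for 9 of the 10 genes, and none is printed for *Sema6a*.
Sema3a, chr5:13396534-13396783: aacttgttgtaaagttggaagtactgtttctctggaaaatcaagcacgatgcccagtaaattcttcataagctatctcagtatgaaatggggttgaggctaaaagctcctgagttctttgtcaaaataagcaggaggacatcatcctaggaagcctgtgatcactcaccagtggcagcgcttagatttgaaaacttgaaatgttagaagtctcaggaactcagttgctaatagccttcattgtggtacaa
Sema3d, chr5:12382916-12383165: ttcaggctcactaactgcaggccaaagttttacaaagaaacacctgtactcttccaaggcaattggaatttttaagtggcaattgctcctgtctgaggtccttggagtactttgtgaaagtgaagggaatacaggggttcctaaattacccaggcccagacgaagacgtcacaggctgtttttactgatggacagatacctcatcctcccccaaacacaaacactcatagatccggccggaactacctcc
Efnb1, chrX:99135811-99136060: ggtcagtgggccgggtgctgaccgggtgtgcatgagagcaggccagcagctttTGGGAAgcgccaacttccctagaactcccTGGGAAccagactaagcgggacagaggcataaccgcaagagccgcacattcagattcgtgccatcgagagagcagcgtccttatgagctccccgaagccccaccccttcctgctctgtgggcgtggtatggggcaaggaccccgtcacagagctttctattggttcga
Here *Sema3a* holds 40.8% GC and 2 CG pairs and *Sema3d* 46.8% GC and 4 CG pairs, against 60% to 72.0% GC and 8 to 27 CG pairs in the promoters of the other 7 genes matched. The median over all 32851 promoters was 52.4% GC. The start used for *Sema3a* lies inside the longer gene model that was used for counting. Searched on both strands, TGGGAA occurred only in *Efnb1*, at 2 places, and in 21.6% of all promoters. GGCGCC, an element that Smad proteins of the BMP pathway bind, occurred in *Ephb4*, in *Efnb2* (2 places) and in 1 of the 2 *Efna1* promoters, and in 9.59% of all. GTCTAGAC, a palindrome bound by other Smad proteins, occurred in none of them and in 0.167% of all.

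Artery and Vein were compared within the 4 WT libraries by edgeR, with the library as a block, to ask which guidance genes separate the arterial from the venous side. A call needed a Benjamini-Hochberg adjusted p under 0.05 over all genes tested and a fold over 1.3, and by this rule 40.3% of all genes tested were called. The 10 genes were chosen with earlier results of these data known, so their counts and medians are a description, not a test. Of the 10, *Sema3a* and *Sema3d* fell to the filter on low counts and 6 of the other 8 were called. The median log2 difference of the 8 was 0.76 (all genes −0.0044). The largest was *Sema3g*, with a log2 fold change (Artery over Vein) of 7.68 (SE 0.15, adjusted p = 8.3e-14). *Unc5b* followed with 4.11 (SE 0.33, adjusted p = 6.8e-08), *Efnb2* with 3.27 (SE 0.12, adjusted p = 2.1e-11) and *Efna1* with 1.36 (SE 0.10, adjusted p = 3.7e-08). On the venous side were *Ephb4* at −0.72 (SE 0.11, adjusted p = 8.6e-05) and *Efnb1* at −0.70 (SE 0.15, adjusted p = 0.0013). For these 6 genes the Artery and Vein libraries did not overlap (33.3% of all genes tested). *Sema3g* and *Unc5b* passed the filter on low counts by their Artery counts. Vein held 18 UMIs of *Sema3g* over the 4 WT libraries, and 9 of *Unc5b* at each stage. *Plxnd1* (0.10, SE 0.09) and *Sema6a* (0.16, SE 0.08) did not pass. Ligand and receptor were thus unequal in contrast, since ephrin-B2 differed 9.66-fold and EphB4 only 1.64-fold.

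Of 56 further genes of these families, 20 were tested between Artery and Vein, 8 were higher and 6 lower in Artery. The largest were the ephrin *Efna5* (52.0 against 0.406 CPM on average), the semaphorin *Sema4b* (55.0 against 1.60 CPM) and the netrin *Ntn4* (35.9 against 2.70 CPM). On the venous side they were the co-receptor *Nrp2* (20.3 against 323 CPM), the plexin *Plxnb2* (9.42 against 52.1 CPM) and *Sema6b* (18.9 against 48.3 CPM).

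Between blood and lymphatic ECs all 10 genes were tested, 47.4% of all genes were called, and 7 of the 10 were. *Sema3d* and *Sema3a* lay on the lymphatic side with log2 fold changes (blood over lymphatic) of −7.81 (SE 0.14, adjusted p = 4.6e-12) and −7.01 (SE 0.19, adjusted p = 9.5e-11). In summed blood ECs they were read at 0.659 to 1.01 and 0.229 to 0.821 CPM. *Unc5b* (−1.99, SE 0.14) and *Ephb4* (−0.79, SE 0.10) were also higher in lymphatic ECs. *Sema3g* (5.74, SE 0.36), *Efnb1* (2.84, SE 0.16) and *Plxnd1* (1.08, SE 0.10) were higher in blood ECs, with adjusted p of at most 3.7e-05 for these 5. *Efna1* (0.38), *Efnb2* (−0.37) and *Sema6a* (−0.34) had adjusted p of 0.0026, 0.0087 and 0.017 but stayed under the fold limit, and their libraries overlapped. As a description of genes chosen with earlier results known, the median of the 10 was −0.36, against 0.0023 over all genes. In the wider list 13 of 28 genes tested were higher and 10 lower in blood ECs. The neuropilin *Nrp1* (359 against 11.4 CPM), *Sema7a* and *Sema4b* led the blood side, and *Flrt3* (0.766 against 27.1 CPM), a ligand of Unc5 receptors, *Sema5b* and *Sema4d* the lymphatic side.

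Between *Cdh5*+/*Krt19*+ cells and ECs 63.5% of all genes were called, and so were all 10, 2 of them higher in the perineurial-like cells (32.0% of all genes). *Efnb1* was higher by 2.22 on the log2 scale (SE 0.15, adjusted p = 1.7e-06), with 140 to 171 CPM against 26.7 to 40.4 CPM. *Sema3d* was higher by 0.85 (SE 0.26, adjusted p = 0.016), although its libraries overlapped, at 76.5 to 106 CPM against 19.7 to 87.7 CPM, in a sum of ECs that held 15% to 46.1% lymphatic cells. Without either anagen library, or without the library as a block, this call was lost (0.53 to 1.10 over 14 alternatives). The other 8 were lower, from *Sema6a* (−1.78) to *Sema3a* (−5.60), with adjusted p of at most 3.7e-06. Of the wider list 40 were tested, 23 were higher and 14 lower. *Ephb2*, a receptor of B ephrins, stood at 78.3 CPM against 0.0979 CPM, and with *Ntn5* and *Sema3c* it led the genes higher in perineurial-like cells. *Sema4d*, *Robo4* and *Sema6b* led those lower.

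The comparison of anagen with telogen asked whether these cues move with the hair cycle. The anagen mice were also older (PD 32 against PD 20) and longer past tamoxifen, which all received at PD 17. By *Xist* and *Ddx3y* they were male, whereas the telogen mice were mixed. Age, time after tamoxifen and sex cannot be told apart from stage here. Within single EC populations 0 of 47 tests of the 10 genes were called by edgeR, where 0.61% of all tests were. At an unadjusted p under 0.05 there were 11 of 47, against 14.9% of all tests, and in 31 of the 47 the 2 stages did not overlap, against 47.9% of all tests. DESeq2, which gave an adjusted p for 31 of the 47, called 1, *Unc5b* in Lymph-Col. Without the filter on low counts 3 were called (*Efna1* in Cap-Kdr, *Unc5b* in Lymph-Col and *Efnb2* in Lymph-Cap), and at Leiden resolution 1.2, 1 (*Sema3g* in Cap-Rgcc).

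**Figure D2:**
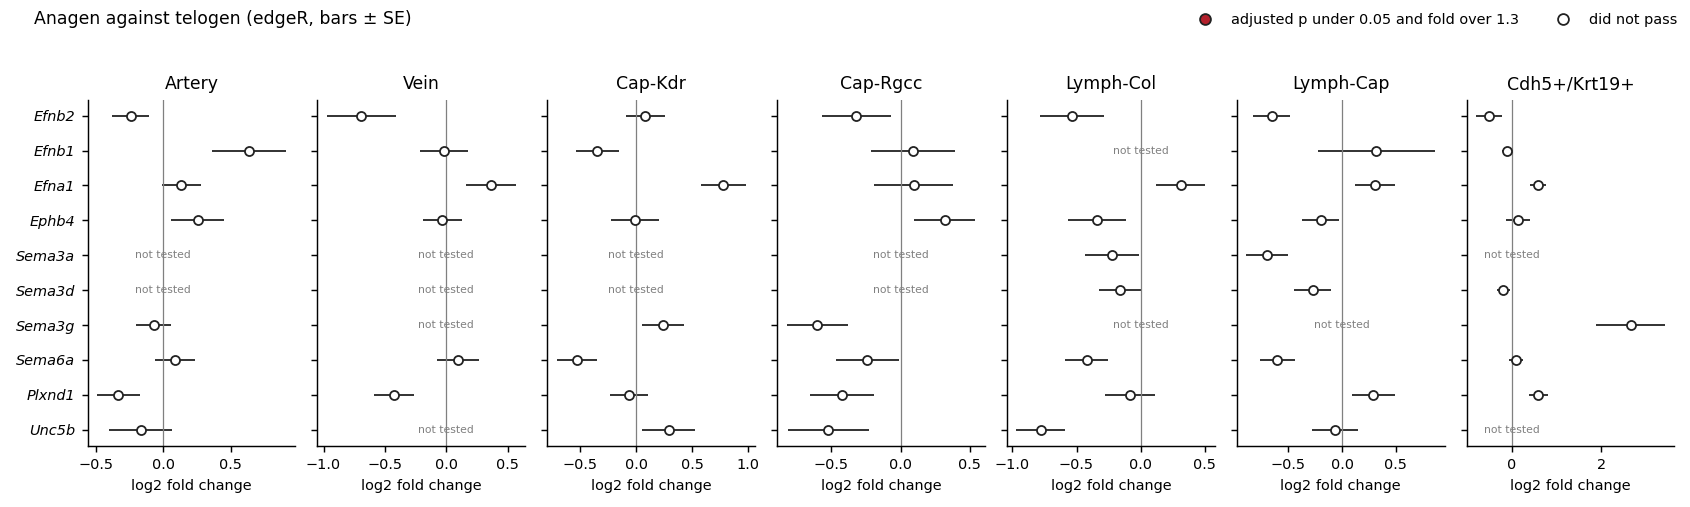
Log2 fold change (anagen over telogen, edgeR, bars ± SE) of the 10 genes in 6 EC populations and *Cdh5*+/*Krt19*+ cells, with a separate scale for each panel. No point is filled, since none passed an adjusted p of 0.05 with a fold over 1.3.

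*Unc5b* in Lymph-Col came nearest to the threshold. It was read at 205 and 177 CPM at telogen and at 108 and 92.3 CPM at anagen, and the stages did not overlap (log2 fold change −0.78, SE 0.19, adjusted p = 0.079). In Lymph-Cap the same receptor stood at 56.0 and 50.2 CPM at telogen and 49.4 and 46.3 CPM at anagen (−0.07, SE 0.21). In Lymph-Cap *Efnb2* was 208 and 252 CPM at telogen and 148 and 126 CPM at anagen (−0.65, SE 0.17, adjusted p = 0.12), *Sema3a* 94 and 106 CPM against 52.8 and 64.4 CPM (−0.70, SE 0.19, adjusted p = 0.13), and *Sema6a* 192 and 174 CPM against 113 and 115 CPM (−0.60, SE 0.16, adjusted p = 0.13). Each of these genes had lower values in both anagen libraries than in both telogen libraries without passing the test. Without anagen S1, 3 tests were called (*Unc5b* in Lymph-Col and *Efnb2* in both lymphatic populations), and without anagen S2, 1 (*Sema3a* in Lymph-Cap).

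*Efna1* had a log2 fold change above 0 in 6 of 6 EC populations (0.09 to 0.78), none called. Its largest difference was in Cap-Kdr, with 130 and 92.9 CPM at telogen and 188 and 173 CPM at anagen (0.78, SE 0.20, adjusted p = 0.33). In *Cdh5*+/*Krt19*+ cells 0 of 8 tests were called (0.886% of all genes), 3 at an unadjusted p under 0.05 (*Efna1*, *Plxnd1* and *Sema3g*, against 15% of all genes) and 0 by DESeq2, and *Efnb1* was at −0.09 there (SE 0.12). *Sema3g* in these cells rested on 8 UMIs at telogen and 31 at anagen, and was called with the replicate number as a block.

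Summed over all ECs, however, *Sema3a* and *Sema3d* were called lower at anagen (7.31% of all genes called, 3.75% lower). *Sema3a* went from 42.0 and 50 CPM to 13.7 and 11.7 CPM (log2 fold change −1.67, SE 0.15, adjusted p = 0.012), and *Sema3d* from 80.6 and 87.7 CPM to 33.2 and 19.7 CPM (−1.49, SE 0.23, adjusted p = 0.022). Lymphatic cells made up 46.1% and 45.9% of ECs at telogen and 23% and 15% at anagen. Within summed lymphatic ECs *Sema3a* was at 107 and 126 CPM at telogen and 70.3 and 96.2 CPM at anagen (−0.38, SE 0.17, adjusted p = 0.25), and *Sema3d* at 204 and 222 CPM and at 176 and 164 CPM (−0.21, SE 0.15, adjusted p = 0.45). In a sum over ECs, fewer lymphatic cells and less RNA per cell cannot be told apart. The smaller differences within lymphatic ECs are the values within that class, itself a sum of 2 populations. In those 2 taken singly *Sema3a* was at −0.70 and −0.22 and *Sema3d* at −0.27 and −0.16, with none called.

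**Figure D3:**
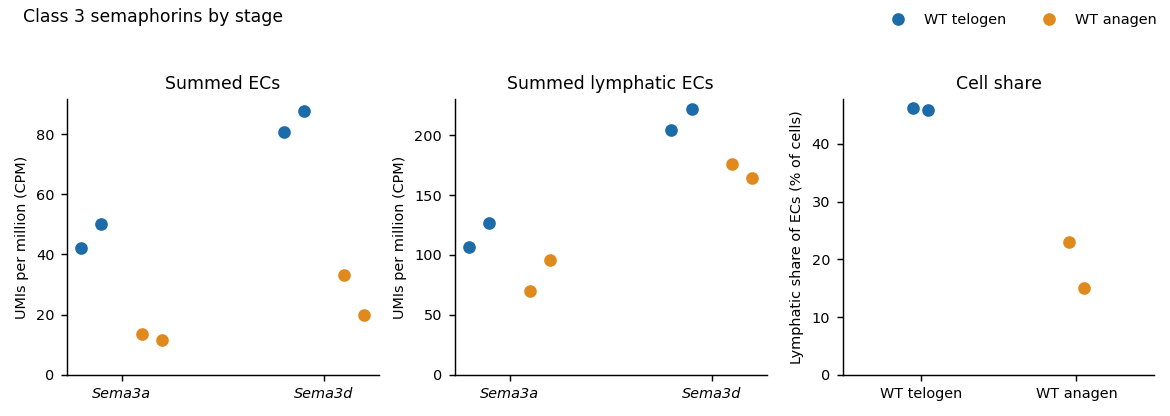
*Sema3a* and *Sema3d* in UMIs per 1000000 of all ECs (left) and of lymphatic ECs alone (middle), and the lymphatic share of ECs in percent of cells (right), with a point for each of 2 telogen and 2 anagen libraries. The stages lie further apart in the sum over ECs than in lymphatic ECs, and the lymphatic share was 46.1% and 45.9% at telogen and 23% and 15% at anagen.

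Over all 15 populations with enough cells, 2 of 93 stage tests were called (0.64% of all tests), both in macrophage-like cells, where 3.33% of all genes were called. *Efna1* went from 1.64 and 0.955 CPM to 14.4 and 6.57 CPM (log2 fold change 3.59, SE 0.63, adjusted p = 0.025) and *Ephb4* from 0.617 and 0.477 CPM to 6.66 and 6.57 CPM (3.78, SE 0.74, adjusted p = 0.037). Anagen S2 held 1 UMI of each, and the *Efna1* call was lost without either telogen library or anagen S1, with likely doublets removed and with the replicate number as a block. The *Ephb4* call was lost with that block and without the Harmony correction, and DESeq2 gave it no adjusted p. In the same macrophage-like sums the 7 EC markers summed to 53.2 and 55.1 CPM at telogen and 364 and 473 CPM at anagen, and the part of this in the 2 calls was not tested. A difference in stage change between blood and lymphatic ECs was called for none of the 10 genes (0 called by the interaction term in edgeR against 0.108% of all genes, 2 at an unadjusted p under 0.05 against 7.83% of all genes, and 0 by DESeq2, which gave an adjusted p for 5). Of the wider list no gene was called between stages in the 6 EC populations or the perineurial-like cells.

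Alk1 KO telogen was compared with WT telogen to ask which of these genes differ once Alk1, a receptor of BMP signalling, is deleted in the labelled cells. Over the 6 EC populations 19 of 48 tests were called, 13 higher and 6 lower, where 21.3% of all tests were called, 9.81% higher and 11.5% lower. DESeq2 called 11 of 48, and without the Harmony correction 9 of 40 were called. *Efna1* was higher in 5 of 6 populations and *Plxnd1* lower in 5 of 6, *Sema3a* was higher in both lymphatic populations, and *Efnb1* was higher in collecting lymphatics. This comparison and the one between stages share the WT telogen libraries. The p-values rest on 2 mice in each group, with the spread of each gene estimated in part from all genes tested.

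**Figure D4:**
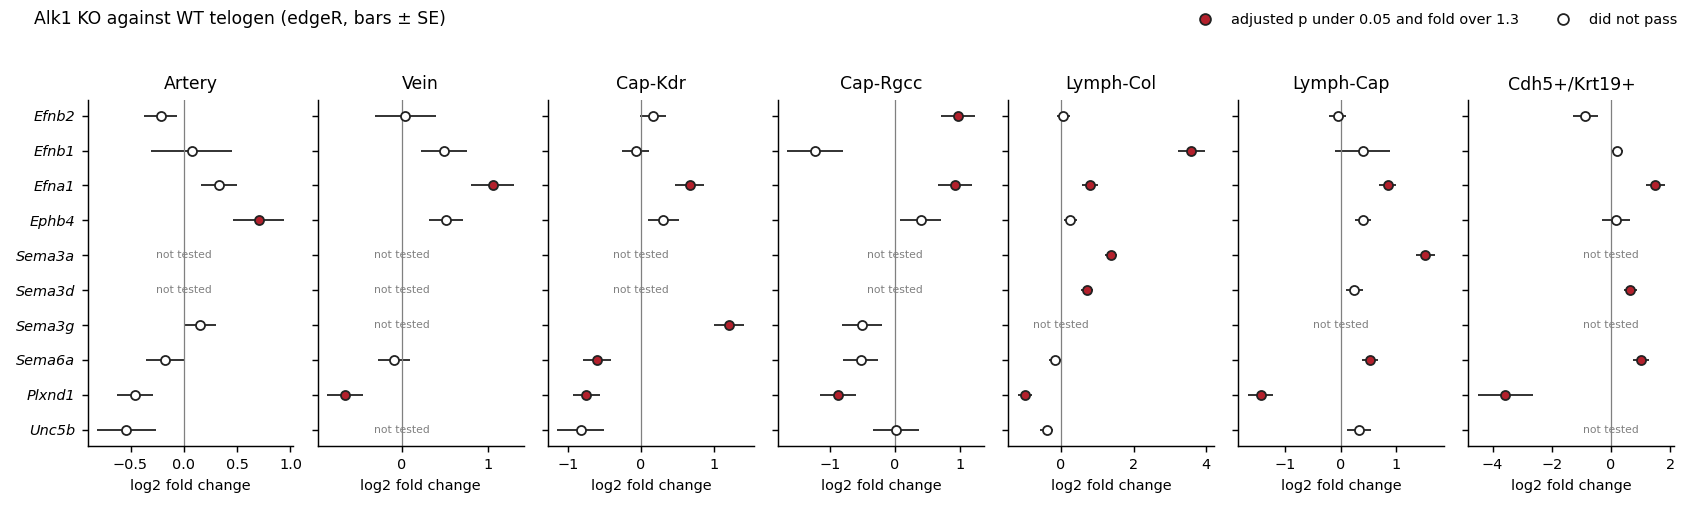
Log2 fold change (Alk1 KO over WT telogen, edgeR, bars ± SE) of the 10 genes in 6 EC populations and *Cdh5*+/*Krt19*+ cells, with a separate scale for each panel. Filled points passed an adjusted p of 0.05 with a fold over 1.3, among them *Efna1* in 6 panels and *Plxnd1* in 6 panels.

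*Efnb1* in Lymph-Col gave the largest change among the EC populations. It was read at 2.19 and 5.27 CPM in WT telogen and at 47.7 and 47.4 CPM in the KO, higher by 3.59 on the log2 scale (SE 0.37, adjusted p = 5.2e-05). In Lymph-Cap it stood at 13 and 4.67 CPM in WT telogen and 15.1 and 9.66 CPM in the KO, which overlapped (0.40, SE 0.49), and in Cap-Kdr at 88.6 and 87.1 CPM and 96.9 and 87.6 CPM (−0.07, SE 0.18). The KO level in Lymph-Col thus lay between that of WT lymphatics and that of Cap-Kdr.

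After each cell was thinned to 1500 UMIs, *Efnb1* was found in 2 of 319 and 2 of 348 Lymph-Col cells of WT telogen (0.627% and 0.575%) and in 15 of 232 and 25 of 298 KO cells (6.47% and 8.39%). The exact binomial intervals, which cover counting error only, were 0.0760% to 2.25% and 0.0697% to 2.06% in WT telogen and 3.66% to 10.4% and 5.50% to 12.1% in the KO. Without thinning the shares were 1.22% and 2.49% in WT telogen and 14.2% and 13% in the KO, at median depths of 4301, 3795, 3925 and 4316 UMIs. Macrophage-like cells, the background, held *Efnb1* in 0 of 326 and 2 of 818 thinned WT telogen cells (median depths 14383 and 12456 UMIs). In the KO the background was 0 of 24 and 0 of 31, which allows up to 12.5% and 9.68% when 3 counts are taken as the limit of a count of 0.

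Marker sums differed as well. In KO Lymph-Col the 6 Lymph-Cap markers summed to 1517 and 1279 CPM against 705 and 585 CPM in WT telogen, and the 8 Lymph-Col markers to 7704 and 8439 CPM against 9341 and 12466 CPM. The perineurial list, which marks the population highest in *Efnb1*, was lower in the KO (395 and 427 CPM against 726 and 689 CPM). The 9 Cap-Kdr markers were at 824 and 661 CPM against 584 and 521 CPM. The part of these differences in the result was not tested. *Efnb1* is X-linked and telogen S2 showed the male pattern, and without telogen S2 the log2 fold change in Lymph-Col was 4.31 (adjusted p = 0.0013).

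**Figure D5:**
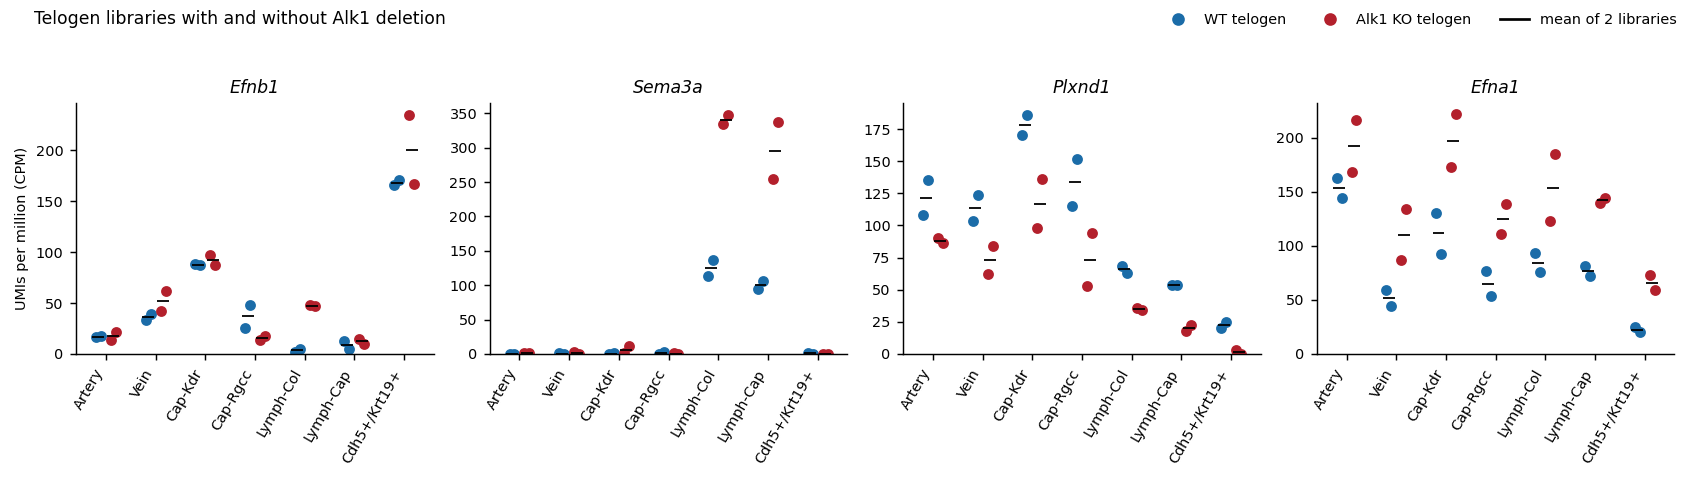
Level of *Efnb1*, *Sema3a*, *Plxnd1* and *Efna1* in UMIs per 1000000 (linear axis, 1 scale per gene) in WT telogen and Alk1 KO telogen, with a point for each library and a bar for the mean of 2. *Efnb1* in Lymph-Col (47.7 and 47.4 CPM in the KO) and *Sema3a* in both lymphatic populations (254 to 347 CPM) lie above all WT telogen points of the same population.

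*Sema3a* rose in both lymphatic populations. In Lymph-Col it was 114 and 136 CPM in WT telogen and 334 and 347 CPM in the KO (log2 fold change 1.37, SE 0.16, adjusted p = 1.2e-04), and in Lymph-Cap 94 and 106 CPM and 254 and 337 CPM (1.53, SE 0.17, adjusted p = 1.4e-04). In thinned cells it was found in 12.2% and 17.5% of WT telogen and 33.2% and 30.9% of KO Lymph-Col cells. Its neighbour *Sema3d* rose in Lymph-Col, from 215 and 216 CPM to 416 and 328 CPM (0.71, SE 0.16, adjusted p = 0.0090), a call lost without either telogen library. In Lymph-Cap *Sema3d* was at 184 and 234 CPM and 262 and 245 CPM, not overlapping but not called (0.25, SE 0.16, adjusted p = 0.33).

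*Plxnd1* was lower in 5 of the 6 EC populations. The greatest fall was in Lymph-Cap, where both WT telogen libraries (54.0 and 53.7 CPM) lay above both KO libraries (17.9 and 22.5 CPM), at −1.44 on the log2 scale (SE 0.23, adjusted p = 0.0015). *Plxnd1* was 68.6 and 63.2 CPM against 35.6 and 34.0 CPM in Lymph-Col (−0.99, SE 0.21, adjusted p = 0.0051) and 170 and 186 CPM against 97.8 and 136 CPM in Cap-Kdr (−0.75, SE 0.19, adjusted p = 0.0064). Cap-Rgcc (−0.87, adjusted p = 0.034) and Vein (−0.66, adjusted p = 0.039) were nearer the threshold, and both were lost without telogen S2 or without KO S1. *Plxnd1* was also lost in Cap-Kdr without KO S1, and in Lymph-Col and Vein without telogen S1. By DESeq2 and under 5% mitochondrial UMIs the calls in Cap-Rgcc and Vein were lost, in 1 fit of all 6 libraries that in Cap-Rgcc, and without the Harmony correction or the filter on low counts that in Cap-Kdr. Artery, at 108 and 135 CPM against 90.0 and 86.5 CPM, did not pass (−0.46, SE 0.17, adjusted p = 0.075). No EC population had a value above 0. In KO Lymph-Cap the 6 Lymph-Cap markers summed to 6062 and 6633 CPM against 4048 and 3537 CPM in WT telogen, and the 8 Lymph-Col markers to 2819 and 2603 CPM against 3121 and 5108 CPM. The part of this in the *Sema3a* and *Plxnd1* values there was not tested.

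*Efna1* rose in Vein (59.2 and 44.7 to 86.8 and 134 CPM), by 1.06 on the log2 scale (SE 0.25, adjusted p = 0.0099). It also rose in Cap-Rgcc (0.92), Lymph-Cap (0.85), Lymph-Col (0.80) and Cap-Kdr (0.67), with adjusted p of 0.0038 to 0.021. Artery, where it is high in WT skin as in Cap-Kdr, did not pass (163 and 144 CPM to 169 and 217 CPM, 0.33, SE 0.17, adjusted p = 0.18). Without telogen S2 none of the 5 passed (adjusted p = 0.073 to 0.30). The calls in Lymph-Col and Vein were also lost without telogen S1 and without KO S2, and that in Cap-Kdr without either KO library. Without the Harmony correction between libraries *Efna1* in Cap-Kdr turned to −0.12 and the Vein call was lost. DESeq2 called neither Cap-Kdr nor Cap-Rgcc, the latter was also lost under 5% mitochondrial UMIs and with likely doublets removed, and the former without the filter on low counts. Leaving out telogen S2, which leaves only libraries with *Xist*, kept 7 of the 19 EC calls: *Efnb1* in Lymph-Col, *Sema3a* in both lymphatic populations, *Sema3g* in Cap-Kdr, and *Plxnd1* in Cap-Kdr, Lymph-Col and Lymph-Cap. Over the 6 populations 13 calls were made without telogen S1, 16 without KO S1 and 14 without KO S2. *Efnb1* in Lymph-Col, *Sema3a* in both lymphatic populations and *Plxnd1* in Lymph-Cap passed under all 15 alternatives.

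Of the remaining genes, *Sema3g* rose in Cap-Kdr from 40.0 and 43.5 CPM to 94.9 and 119 CPM (1.21, SE 0.21, adjusted p = 5.4e-04, lost without the Harmony correction), while Artery was at 423 and 466 CPM against 467 and 518 CPM (0.15, SE 0.15). *Efnb2* rose in Cap-Rgcc from 81.5 and 81.6 CPM to 116 and 207 CPM (0.96, SE 0.26, adjusted p = 0.017) but was 247 and 250 CPM against 196 and 231 CPM in Artery (−0.21, SE 0.15, adjusted p = 0.37). *Ephb4* rose in Artery from 43.5 and 32.8 CPM to 55.9 and 68.2 CPM (0.70, SE 0.24, adjusted p = 0.049), had values above 0 in the other 5 populations, and passed in none of those. The *Efnb2* call was lost without either telogen library or KO S2, at Leiden resolution 1.2 and by DESeq2. That of *Ephb4* was lost under 7 of 15 alternatives, namely without telogen S2 or KO S2, with at least 500 genes per cell, under 5% mitochondrial UMIs, without the Harmony correction, at Leiden resolution 1.2 and by DESeq2. *Sema6a* fell in Cap-Kdr (−0.60, adjusted p = 0.025) and rose in Lymph-Cap (0.53, adjusted p = 0.032), the first lost without telogen S2 or either KO library, without the filter on low counts and by DESeq2. The second was lost without either telogen library, with at least 500 genes per cell, under 5% mitochondrial UMIs, without the Harmony correction and by DESeq2. Without the Harmony correction *Sema6a* in Cap-Kdr turned to 0.040. *Unc5b* was called in none of 5 populations tested. In summed lymphatic ECs it fell (−0.64, SE 0.13, adjusted p = 0.0045, 25.7% of all genes called), from 152 and 134 CPM to 94.2 and 98.0 CPM, while Lymph-Cap, where it is low, went from 216 and 209 of 545 and 570 lymphatic cells to 448 and 529 of 695 and 844. At a fixed cell type *Unc5b* was at 56.0 and 50.2 CPM in WT telogen and 55.9 and 80.8 CPM in the KO in Lymph-Cap (0.33, SE 0.22), and at 205 and 177 CPM and 178 and 130 CPM in Lymph-Col (−0.39, SE 0.18, adjusted p = 0.16). Both overlapped, and neither passed.

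In KO Artery the 10 Artery markers summed to 4195 and 3995 CPM against 7138 and 8675 CPM in WT telogen, and in KO Cap-Kdr the 9 Cap-Kdr markers to 9554 and 8162 CPM against 10381 and 11892 CPM. The 5 erythroid markers in Cap-Rgcc, haemoglobins among them, summed to 2299.8 and 2855 CPM in the KO and to 29.2 and 41.6 CPM in WT telogen. Their part in the values above was not tested.

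The KO change itself was compared between blood and lymphatic ECs by an interaction term, which called 3 of the 10 genes and 19.4% of all genes. *Efnb1* was at 0.02 in summed blood ECs and rose by 2.05 in summed lymphatic ECs (difference −2.0, SE 0.29, adjusted p = 2.4e-04). The blood populations did not move alike. Cap-Rgcc went from 25.5 and 48.3 CPM in WT telogen to 13.3 and 17.6 CPM in the KO. Vein went from 33.3 and 38.8 CPM to 42.2 and 61.8 CPM, while Artery and Cap-Kdr overlapped. None of these was called, and of the lymphatic populations only Lymph-Col was. *Plxnd1* fell less in blood ECs (−0.67) than in lymphatic ECs (−1.36; difference 0.72, SE 0.19, adjusted p = 0.014). *Sema6a* was at −0.35 in blood and 0.27 in lymphatic ECs (difference −0.60, SE 0.16, edgeR adjusted p = 0.015), neither past the threshold by itself. Taken singly, *Sema6a* was above 0 in 1 of 6 EC populations, Lymph-Cap, and below 0 in the other 5, Lymph-Col among them. Lymph-Cap held 216 and 209 of 545 and 570 lymphatic cells in WT telogen and 448 and 529 of 695 and 844 in the KO. The part of this shift in the summed values was not tested. The *Plxnd1* difference was lost without telogen S1 or KO S2 and without the library as a block, and that of *Sema6a* without telogen S2 or KO S2 and under 5% mitochondrial UMIs. Both were lost by DESeq2 and without the Harmony correction.

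In the *Cdh5*+/*Krt19*+ cells, of which the KO libraries held only 80 and 57 against 555 and 869 in WT telogen, 4 of 7 genes tested were called and 21.7% of all genes. *Efna1* rose from 24.7 and 20.5 CPM to 72.9 and 59.2 CPM (log2 fold change 1.5, SE 0.33, adjusted p = 0.0056). *Sema6a* rose from 43.0 and 38.2 CPM to 101 and 64.5 CPM (1.01, SE 0.29, adjusted p = 0.023), and *Sema3d* from 93.0 and 106 CPM to 152 and 188 CPM (0.65, SE 0.21, adjusted p = 0.040). *Plxnd1* was lower, with 1 UMI in the KO and 208 UMIs in WT telogen, a ratio of WT telogen to KO of 11.5 (95% counting interval 2.04 to 457). *Efnb1*, the ligand most typical of these cells, was at 166 and 171 CPM and at 235 and 167 CPM, which overlapped (0.20, SE 0.21). Fibroblast markers in this population summed to 1075 and 871 CPM in the KO and 6284 and 6726 CPM in WT telogen, with their part in these values not tested. *Efna1* was lost without telogen S2 or KO S1, *Sema6a* without either telogen library or KO S1, and *Sema3d* without any 1 of the 4 libraries. DESeq2 called *Efna1* alone of the 4 (*Plxnd1* adjusted p = 0.070). *Plxnd1* was also lost under 5% mitochondrial UMIs and with likely doublets removed, *Sema6a* with doublets removed, and *Sema3d* under 10 of 15 alternatives.

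Over all 14 populations with enough cells in both groups, 25 of 83 tests were called (17.4% of all tests), 17 higher and 8 lower (7.98% and 9.45% of all tests). Outside the populations above these were *Efna1* in proliferative cells (36.2 and 47.4 CPM to 77.4 and 147 CPM, 2.0, SE 0.48, adjusted p = 0.023) and *Sema6a* in pericyte-like cells, where 3 UMIs in the KO and 150 in WT telogen gave a ratio of WT telogen to KO of 9.92 (3.33 to 48.6), a call lost without telogen S1 and with the replicate number as a block. The 8 fibroblast markers in pericyte-like cells summed to 273.9 and 209.8 CPM in the KO and 1522 and 1679 CPM in WT telogen, with their part not tested. The *Efna1* call in proliferative cells was lost without either telogen library. In the KO sums of these cells 1 UMI was worth 7.74 and 12.2 CPM, so the call rests on few UMIs. *Xist* stood there at 61.9 and 257 CPM, against 858 and 824 CPM in ECs of the same KO libraries, and its bearing on the call was not tested.

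The wider list gave 3 rises and 2 falls among 19 genes tested for Artery, where 19.6% of all genes were called. Vein gave 4 rises and 1 fall among 17 (21.2% of all genes), Cap-Kdr 5 rises and 5 falls among 17 (34.6%), and Cap-Rgcc 2 rises and 2 falls among 14 (18.6%). Lymph-Col gave 4 rises and 2 falls among 17 (17.8%), and Lymph-Cap 2 rises and 3 falls among 24 (16.0%). *Nrp1*, the co-receptor that plexins share with VEGF receptors, fell in Cap-Kdr (748 to 219 CPM on average), Cap-Rgcc (384 to 114 CPM) and Vein (219 to 119 CPM). *Sema6b* rose in Artery (15.1 to 54.4 CPM), Vein, Cap-Rgcc and both lymphatic populations. *Nrp2*, another neuropilin, fell in Lymph-Cap (320 to 180 CPM), as did the Eph receptor *Epha2* (82.7 to 26.4 CPM). In Lymph-Col the netrin receptor *Neo1* fell (184 to 72.8 CPM) with *Flrt3* (40.8 to 10.4 CPM), and *Ntn4* rose (39.3 to 86.2 CPM). In *Cdh5*+/*Krt19*+ cells 4 of 31 were higher and 4 lower, with *Ephb2* (86.5 to 9.51 CPM), *Ntn5* and *Efnb3* lower and *Ntn4*, *Sema4c* and *Sema6d* higher.

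Across 28 sums (7 EC populations, the proliferative one included, in 4 WT libraries) the genes whose log2(CPM + 1) ran most like each of the 10 were named as a description, since the sums share libraries and cell types. For *Sema3a* they were *Sh3gl3* (Pearson r = 0.98), *Dtx1* (0.98) and *Gm14964* (0.98), and for *Sema3d* *Slc38a4* (0.98), *Nsg1* (0.97) and *Sh3gl3* (0.96). For *Sema3g* they were *Jag2* (0.95), a Notch ligand, *Eps8l2* (0.94) and *Pls3* (0.92), and for *Efnb2* *Gja4* (0.88), an arterial connexin, *Gprc5b* (0.87) and *Timp3* (0.86). *Efnb1* ran with *C130074G19Rik* (0.94), the fatty acid transporter *Cd36* (0.94) and *Hecw2* (0.94), and *Plxnd1* with *Gask1b* (0.93), *Thrsp* (0.92) and *Rflnb* (0.90). *Unc5b* ran with *Tgfb1* (0.93), an entry named *Ddit3* (0.91) and *Rbm39* (0.89), and *Ephb4* with *Mdfic* (0.89), *Klhl4* (0.88) and *Enho* (0.87). *Sema6a* ran with *Lpp* (0.88), *Klf9* (0.88) and *Ecpas* (0.88), and *Efna1* with *Il10rb* (0.83), *Rgs3* (0.83) and *Cav2* (0.83). *Gja4*, *Cd36*, *Thrsp* and *Nsg1* are among the markers that named the populations. Among the 10, *Sema3a* and *Sema3d* were most alike (0.95), followed by *Efnb1* with *Plxnd1* (0.82) and *Efnb2* with *Unc5b* (0.81), and *Efnb1* ran opposite to *Sema3d* (−0.82).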

How the data were processed

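Dorsal skin of 6 mice was dissociated, and live tdTomato+ cells were sorted and sequenced with 10x Chromium 3′ v3 chemistry. The deposited matrices hold UMI counts per gene and cell barcode, not normalized, as the authors left them. The submitters' processing notes name Cell Ranger 6.0.1, the mm10 build and Seurat 4.0. Cells with 200 to 5000 genes and under 10% mitochondrial UMIs were kept (2283 to 6643 barcodes and 10615358 to 43317677 UMIs per library, median 4371 to 6935 UMIs per kept cell).

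Cells were clustered with scanpy 1.11.5 (3000 variable genes without 66 guidance genes, 30 principal components, Harmony, Leiden 0.6 with igraph 0.11.9) and named where at least 3 fixed markers passed. Doublets by Scrublet were kept here and removed in an alternative, which took the top 5% of scores in the 4 libraries where the automatic caller marked under 0.5%. Counts were summed per library and population with at least 5 cells and tested in edgeR 4.0.16 (R 4.3.3, limma 3.58.1): filterByExpr, TMM, quasi-likelihood F test, Benjamini-Hochberg adjustment over all genes tested. Genes with a fold over 1.3 and an adjusted p under 0.05 were called, and the SE is the log2 fold change over the root of F. Contrasts between populations had the library as a block. DESeq2 1.42.0, relative log expression size factors, no filter on low counts, other cell filters and clusters, no Harmony, a replicate block, 1 fit of all 6 libraries and leaving out each library were alternatives. An exact permutation test of 2 mice against 2 cannot go below p = 0.333 and was not used. Python 3.11.15, numpy 2.4.6, scipy 1.17.1, pandas 2.3.3, scikit-learn 1.9.0 and matplotlib 3.10.9 were used, and the tests were checked on simulated data.

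All 10 genes entered every comparison in which they passed the filter on low counts, and not every value is given above. Of the wider family at most the 3 greatest rises and 3 greatest falls among calls without overlap were named, and for each of the 10 genes the 3 most correlated genes with a mean of at least 20 CPM. The members and lists were chosen with earlier results of these data known. Intervals cover counting error only. Replicate numbers do not mark shared animals. Residuals of same-numbered libraries correlated at −0.067 to 0.024. The clusters come from the cells that were then compared, so population contrasts describe how the groups differ.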

Additional observations from a re-analysis of the deposited data

Results flagged for a closer look

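The Alk1 KO change differed between summed blood and summed lymphatic ECs by the interaction term in edgeR for 3 of the 10 genes, against 19.4% of all genes. Lymph-Cap held 216 and 209 of 545 and 570 lymphatic cells in WT telogen and 448 and 529 of 695 and 844 in the KO. The part of such shifts in the differences was not tested. Taken singly, *Efnb1* was called in Lymph-Col and not in Lymph-Cap, and *Sema6a* was above 0 in Lymph-Cap alone of 6 EC populations. For *Efnb1* the difference (blood minus lymphatic, log2) was −2.0 (SE 0.29, adjusted p = 2.4e-04), with −2.65 to −1.77 over 14 alternatives, all past the threshold. For *Plxnd1* it was 0.72 (SE 0.19, adjusted p = 0.014), with 0.54 to 0.90 over the alternatives and adjusted p up to 0.13. For *Sema6a* it was −0.60 (SE 0.16, adjusted p = 0.015), with −0.76 to −0.29 and adjusted p up to 0.35.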

How the results depend on the processing

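The count of the 10 genes called between stages over all populations, 2, became 4 with at least 500 genes per cell, 8 under 5% mitochondrial UMIs, 0 with likely doublets removed, 1 without Harmony, 10 at Leiden resolution 1.2, 11 without the filter on low counts and 0 with all 6 libraries in 1 fit, and ran from 0 to 4 when each library was left out. The KO count, 25, became 14 without Harmony and 14 by DESeq2, and ran from 8 to 24 with a library left out, lowest without WT telogen S2. The Artery and Vein count was 6 under every alternative, that of blood and lymphatic ECs 7 to 10, and that of *Cdh5*+/*Krt19*+ cells 9 to 10. The KO interaction count, 3, became 1 without Harmony and 1 by DESeq2, and ran from 1 to 3 with a library left out. The stage interaction count, 0, became 1 without the filter on low counts, and ran from 0 to 1. Without Harmony, in Cap-Kdr of the KO, *Efna1* turned to −0.12 and *Sema6a* to 0.040. Of 2328 alternatives over 162 values, 103 lost and 35 gained a call, and 102 others changed sign without passing the threshold in either fit. DESeq2 gave no adjusted p for 22 further values, which were not counted. The causes were not tested.

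The replicate block gave 1 stage call and 23 KO calls. Both macrophage-like stage calls were lost under it, and the 1 call was *Sema3g* in *Cdh5*+/*Krt19*+ cells. Without the library as a block the population contrasts gave 6, 7 and 9 calls, and the interactions 2 for the KO and 0 for stage. The replicate numbers do not pair mice.

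The KO held 57 and 80 *Cdh5*+/*Krt19*+ cells, and its libraries had the fewest UMIs in all, but its EC sums did not (1 UMI was worth 0.127 and 0.124 CPM, against 0.139 and 0.153 CPM in WT telogen). With 1 sample left in an arm, it was assumed to vary like the others.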
